A study of Mus musculus with 12 samples.

Results

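Neoplasms of the distal colon from mice given azoxymethane and dextran sulfate sodium (AOM/DSS) were compared with distal colon epithelium from mice given dextran sulfate sodium alone (DSS), by the group named in the sample labels. Each group has 3 arrays, which makes 6 of the 12 arrays of the series. All animals were female BALB/c mice, 5 to 7 weeks old per the design text, and tissue was taken on day 100. AOM is a colon carcinogen that alkylates DNA, and DSS in the drinking water injures the epithelium and causes colitis. AOM/DSS mice received AOM once, at 12.5 mg/kg into the peritoneum on day 1, followed by DSS. In both groups DSS ran for 3 cycles from day 5, each with 5 days of DSS in a 21-day cycle. The remaining arrays hold 3 samples after AOM alone (10 mg/kg once a week, 6 times) and 3 untreated controls. Epithelium of the DSS, AOM and control mice was collected by scraping into Trizol, while neoplasms were cut out with scissors and kept in a storage solution. Disease, way of collection, storage and AOM exposure all separate AOM/DSS from DSS tissue and cannot be told apart. Whether the 3 arrays of a group stand for 3 animals is not stated in the labels, so some of the variation among them may be technical. A p-value here reflects the variation within groups over all 12 arrays, AOM and control arrays included, and not that of the compared groups alone.

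Colon tumours of the AOM/DSS model are known for activation of Wnt signalling, in which beta-catenin joins TCF/LEF factors on DNA and switches on genes of the crypt base, among them its own inhibitors. Healthy distal colon epithelium turns over from crypt stem cells into absorptive colonocytes, mucus-making goblet cells, hormone-making enteroendocrine cells and chemosensory tuft cells. The mucosa also holds lymphoid follicles rich in B cells, and neutrophils enter it during inflammation.

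Level here means the log2 of the processed one-colour intensity minus the 75th percentile of the same array, so 0 is a bright but not extreme probe. That percentile lay between 1115 and 1185 on AOM/DSS arrays and between 434 and 670 on DSS arrays, and 62.6 to 66.2% of probes on AOM/DSS arrays, against 52.0 to 59.3% on DSS arrays, were well above background. No spot was saturated. Levels correlated at 0.967 to 0.977 among AOM/DSS arrays and at 0.939 to 0.977 among DSS arrays, and at 0.859 to 0.889 between AOM/DSS and DSS arrays. DSS replicate 1 was nearest to a control array and DSS replicate 2 to an AOM array, and DSS replicate 1 carried transcripts of exocrine pancreas, as did control replicate 3. AOM/DSS and DSS arrays share no slide, so there is no value within a slide.

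Of 18712 genes tested, 6751 (36.1%) differed between AOM/DSS neoplasms and DSS epithelium, 3361 (18.0%) higher and 3390 (18.1%) lower in the neoplasms (limma, Benjamini-Hochberg adjusted p under 0.05, n = 3 arrays each). Among the 13357 genes with a symbol, to which all list members belong, 16.7% were higher and 20.6% lower. Counts of list members below are read against these shares. Values of AOM/DSS and DSS did not overlap for 9194 genes (49.1%), and the median log2 difference over all genes was 0.05. Changes of over 2 log2 units made up 999 of the rises and 776 of the falls. The higher share of the calls was 49.8%, but 35.8% with arrays scaled to their median and 36.6% with normexp background correction, which put the median of all genes at -0.17 and -0.26. Small differences below are therefore read against those shifts. The normexp setting also adds 50 to every signal, which by construction makes the differences of dim genes smaller. The count was 3855, 4414 and 3363 without AOM/DSS replicate 1, AOM/DSS replicate 2 and DSS replicate 3. With slide as a block, which links AOM/DSS to DSS only through the AOM arrays on their slides, 470 genes were called and 6748 of the 6751 kept their sign, and no gene list below kept more than 12 calls. For comparison, DSS and control epithelium differed in 39 genes (0.208%).

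The 20 largest rises held secreted proteins, Wnt inhibitors, and genes of other roles. Matrilysin (Mmp7), a metalloproteinase of Paneth cells and intestinal adenomas, was at 5.27, 6.77 and 6.88 in AOM/DSS replicates 1, 2 and 3, against -3.23, -4.61 and -3.08 in DSS replicates 1, 2 and 3. The groups lay far apart, and the difference was 9.94 ± 0.84 log2 units (SE, limma adjusted p = 8.4e-05). Where a gene was not well above background on any array of the lower group, a bound is given, which sets the mean of the higher group against the lowest signal that counts as above background on the dim arrays. The bound applies to the processed intensity used here and not to other background corrections. By that bound the serine protease Prss56 was at least 66.9-fold higher, the zinc finger factor Plagl1 at least 129-fold and the meiotic germ cell gene Tex15 at least 32.1-fold (limma adjusted p = 0.0017, 0.00057 and 0.0003). With normexp their differences were 4.23, 4.80 and 2.83 log2 units, each below its bound. Prss56 varied among the neoplasms, with 0.53, 4.39 and 1.00. The proteoglycan Spock2 rose by 7.01 ± 0.80, the heparin-binding growth factor Ptn by 6.64 ± 0.88, and the apical export pump Abcc2 was at least 20.8-fold higher (limma adjusted p = 0.00036, 0.00072 and 0.00026). With normexp Prss56 and Abcc2 did not pass (adjusted p = 0.062 and 0.059). Levels of the complement protease Cfi, which was above background on none of the DSS arrays, were 1.60, 0.93 and 1.93 in the neoplasms.

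**Figure D1:**
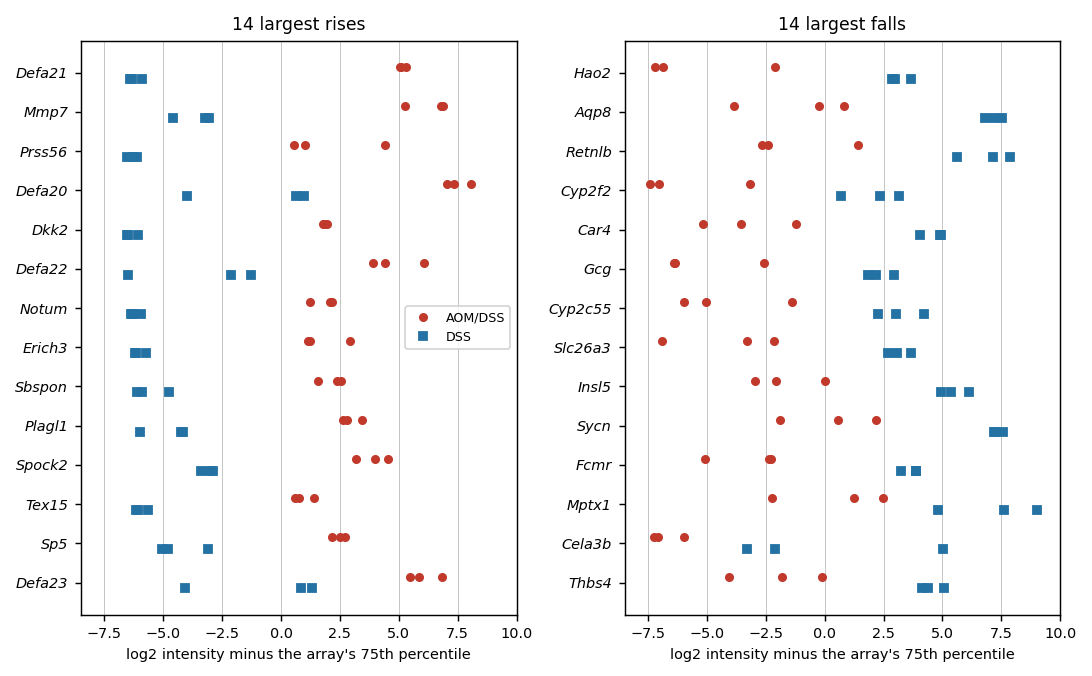
Levels (log2 intensity minus the array's 75th percentile) of the 14 genes that rose most and the 14 that fell most, 1 point per array, AOM/DSS in red circles and DSS in blue squares. AOM/DSS and DSS points do not overlap for any of the 28 genes, which the rule for choosing them requires, and AOM/DSS replicates spread widely for falling genes such as Hao2 and Slc26a3.

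Alpha-defensins, antimicrobial peptides of mouse Paneth cells, were also among the largest rises. Defa21 was at 5.07, 5.31 and 5.05 in the AOM/DSS arrays, against -6.41, -6.35 and -5.89 in the DSS arrays, none of them above background there, which gives at least 601-fold (limma adjusted p = 0.0004). Defa20, Defa22 and Defa23 rose by 8.28 ± 1.65, 8.11 ± 1.77 and 6.69 ± 1.75 log2 units (limma adjusted p = 0.005, 0.0076 and 0.015). With slide as a block these 3 did not pass (limma adjusted p = 0.18, 0.20 and 0.29). Their DSS values split: Defa20 was at 0.64 and 0.97 in DSS replicates 1 and 3 and at -3.99 in DSS replicate 2, and the others had the same pattern. Without DSS replicate 2 the call for Defa23 ended (limma adjusted p = 0.052). These genes are near-identical copies, so the probes may share signal and single members are uncertain.

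Wnt pathway genes were mostly higher in the neoplasms. Of 25 tested members of a list of Wnt targets and inhibitors, 16 rose, 1 fell and 8 did not pass, against 18.0% of all genes called higher and 18.1% lower. The median difference was 3.06 log2 units, and 2.6 with members below background at their bound, against 0.05 over all genes. With slide as a block 8 members rose. Secreted inhibitors led. Notum, a carboxylesterase that removes the lipid from Wnt ligands, was at 2.18, 2.06 and 1.21 in AOM/DSS arrays, against -6.37, -6.27 and -5.93 in DSS arrays. It was at least 59.9-fold higher, and Dkk2, a secreted ligand of Wnt co-receptors, at least 61.3-fold (limma adjusted p = 0.00057 and 0.00067). Dkk2 was the more uniform of the pair, with 1.82, 1.95 and 1.78 in the neoplasms.

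Inside the cell, the dishevelled-binding inhibitor Nkd1 was at 4.54, 4.84 and 4.54 in AOM/DSS neoplasms, against -1.85, -1.45 and -2.84 in DSS epithelium (6.69 ± 1.10 log2 units, limma adjusted p = 0.0022). Axin2, the scaffold of the beta-catenin destruction complex and a direct Wnt target, rose by 3.06 ± 0.68 (limma adjusted p = 0.0082). Its DSS values were -2.30, -2.18 and -2.21 and its AOM/DSS values 0.59, 0.74 and 1.15, and with normexp its call ended (limma adjusted p = 0.058). Sp5, a transcription factor induced by Wnt, was at 2.16, 2.69 and 2.52 in the neoplasms, against -4.78, -3.09 and -5.04 in DSS epithelium (6.76 ± 0.95). Wnt targets commonly discussed in colon cancer moved less. Myc was at 0.99 ± 0.37, Cd44 at 0.94 ± 0.34 and Sox9 at 0.63 ± 0.43 (limma adjusted p = 0.058, 0.053 and 0.26), and the first and second passed under some alternatives, for example with normexp. The only member called lower was Tcf7l2, a TCF factor, at -1.46 ± 0.39 (limma adjusted p = 0.016), and it no longer passed without AOM/DSS replicate 3 or DSS replicate 3 (adjusted p = 0.058 and 0.064) or with normexp (adjusted p = 0.12).

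Ligands and receptor-level regulators of the list were followed up after their values were seen. Wnt6 and Wnt10a, both secreted ligands, rose by 5.27 ± 0.68 and 5.58 ± 0.73 log2 units (limma adjusted p = 0.00063 and 0.0007). Wnt11, also a ligand of the list, did not pass, at -0.54 ± 0.31 (limma adjusted p = 0.19). Wnt10a was at 3.33, 3.83 and 2.33 in AOM/DSS arrays, against -2.85, -2.36 and -2.04 in DSS arrays, and the groups lay far apart. Wif1, which binds Wnt ligands, rose by 6.45 ± 0.97, and the ubiquitin ligases Znrf3 and Rnf43, which remove Wnt receptors from the surface, by 3.77 ± 0.51 and 2.6 ± 0.44 (limma adjusted p = 0.0013, 0.00077 and 0.0024). Outside the list, the R-spondin gene Rspo1, whose product strengthens Wnt signals, was at least 7.2-fold lower in the neoplasms (limma adjusted p = 0.0017). The secreted Wnt inhibitor Sfrp2, also outside the list, fell by 5.05 ± 1.11 (limma adjusted p = 0.0079, and 0.3 with slide as a block). Wif1, Wnt6, Wnt10a, Znrf3, Rspo1, Notum and Dkk2 also passed with slide as a block, whereas Nkd1, Axin2, Sp5 and Rnf43 had adjusted p = 0.06, 0.062, 0.051 and 0.056 there. The difference of each was larger in that fit, such as 8.74 log2 units for Wif1 and 7.62 for Wnt10a. Those sizes include the differences among AOM arrays, where Wif1 was at 0.16, 4.72 and 4.62 in AOM replicates 1, 2 and 3.

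TCF/LEF sites were searched in RefSeq promoters (GRCm38.p6, 250 bases before to 50 after the start) as CTTTGAT and CTTTGAA on either strand, where matches on opposite strands may overlap. Of 25 tested list members 17 had a promoter, with 26 promoters in all, and 3 of these (11.5%) held a match, against 8.65% of all 32851 promoters. Matches lay in 2 of 12 members that rose and had a promoter, and in Wnt11, which did not pass. The window of Sp5 is shown because this gene had the largest difference among the 3 list members with a match. Capitals mark the motif in the window at chr2:70474807-70474837 on the plus strand:
Sp5: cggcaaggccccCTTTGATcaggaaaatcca
The match is a description of these letters and not a measured site. None of the 9 promoters found for the crypt stem cell list held one.

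Stem cell genes of the crypt went both ways. Of 14 tested, 7 rose, 1 fell and 6 did not pass, against 18.0% of all genes higher and 18.1% lower. The median was 0.98 log2 units, and 4 rose without AOM/DSS replicate 1 or with normexp. Lgr5, the R-spondin receptor that marks crypt base stem cells, was at 2.63, 1.66 and 1.49 in AOM/DSS arrays, against -4.93, -3.34 and -6.0 in DSS arrays (6.68 ± 0.91, limma adjusted p = 0.00081). Control arrays had a mean of -1.62, which lies above every DSS value. Smoc2, a matrix protein of the crypt base, rose by 3.36 ± 0.49 and Hopx, a homeodomain protein of slow-cycling cells, by 2.05 ± 0.44 (limma adjusted p = 0.0012 and 0.0072). The RNA-binding protein Msi1 fell by 3.1 ± 0.44, with 0.41, 0.25 and 1.34 in the neoplasms and 2.94, 3.89 and 4.49 in DSS epithelium. Ascl2, a stem cell transcription factor, was at 1.23 ± 0.38 (limma adjusted p = 0.03), a call that each of the 6 single-array omissions ended and that changed sign with normexp, to -0.10.

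Absorptive colonocyte genes were low in the neoplasms. None of 33 tested members rose, 26 fell and 7 did not pass, against 18.1% of all genes called lower, with a median of -2.47 log2 units, and 12 fell with slide as a block. In bulk tissue, fewer cells of a type and less RNA per cell cannot be told apart. The water channel Aqp8 was at 0.84, -0.26 and -3.85 in AOM/DSS arrays, against 6.79, 7.53 and 7.18 in DSS arrays (-8.26 ± 0.96, limma adjusted p = 0.00038). The chloride exchanger Slc26a3 was at -2.15, -3.32 and -6.93 in neoplasms, against 3.65, 2.70 and 3.05 in DSS epithelium (-7.26 ± 0.94). AOM/DSS replicate 3 was the lowest for both, and the DSS arrays lay close together. The membrane carbonic anhydrase Car4 fell by 7.92 ± 0.83 and the surface keratin Krt20 by 3.59 ± 0.36 (limma adjusted p = 0.00024 and 0.0002). The cytosolic carbonic anhydrase Car1 was at -0.90 ± 0.39 (limma adjusted p = 0.09), with AOM/DSS values of 5.33, 4.45 and 4.97 overlapping the DSS values of 5.14, 6.56 and 5.73.

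Hao2, a peroxisomal hydroxy acid oxidase, had the largest fall of all named genes (-8.56 ± 1.04 log2 units, limma adjusted p = 0.00048). With normexp it was at -6.01, a smaller fall than that of Aqp8 at -7.38. The AOM/DSS values of Hao2 were -2.11, -7.20 and -6.86 and its DSS values 2.85, 3.66 and 2.98. In AOM/DSS replicates 2 and 3 it lay near somatostatin (Sst), at -6.82 and -7.06 and not above background there, so the size of the fall is uncertain. AOM/DSS replicate 1 thus kept more of this transcript than the other neoplasms, and the same held for Cyp2f2 with -3.16, -7.42 and -7.02, and for the glucagon gene Gcg with -2.56, -6.36 and -6.42. Of those genes, Cyp2f2 encodes a cytochrome P450 of the xenobiotic list. In that list 18 of 25 tested members fell and 2 rose, with a median of -2.34. Cyp2c55 and Cyp2c65, P450s of the colon, fell by 7.29 ± 1.01 and 5.54 ± 0.65, and the sulfotransferase Sult1c2 fell by 5.34 ± 0.59 (limma adjusted p = 0.00089, 0.00039 and 0.0003). Fabp2, a fatty acid binding protein of absorptive cells, fell by 6.34 ± 0.58.

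Secretory cells showed the same direction. Of 22 goblet cell genes 19 fell and 3 did not pass, with a median of -2.21 log2 units, and 12 fell with normexp. The resistin-like Retnlb, secreted by goblet cells, was at 1.41, -2.42 and -2.65 in AOM/DSS arrays, against 7.14, 5.60 and 7.86 in DSS arrays (-8.09 ± 0.96, limma adjusted p = 0.00042). The bacteria-binding lectin Zg16 was at 6.31, 4.71 and 0.52 in neoplasms, against 9.32, 9.60 and 10.08 in DSS epithelium, and the mucus protein Clca1 at 6.14, 3.66 and -0.73, against 8.54, 8.65 and 9.34. Both were ordered alike over the neoplasms, with AOM/DSS replicate 3 the lowest. The mucin Muc2 fell by 2.88 ± 0.59 and the tissue kallikrein Klk1 by 5.10 ± 0.63 (limma adjusted p = 0.0054 and 0.00051). Atoh1, the transcription factor that starts the secretory fate, fell by 2.27 ± 0.33 (limma adjusted p = 0.0012). Of the goblet genes only Zg16 passed in the slide-blocked fit.

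Of 22 enteroendocrine genes on the array 15 passed the filter on dim probes. Of these 12 fell, 1 rose and 2 did not pass, with a median of -4.37 log2 units. Insl5, a hormone of colonic L cells, was at 0.03, -2.06 and -2.94 in AOM/DSS arrays, against 4.94, 6.14 and 5.35 in DSS arrays (-7.13 ± 0.63, limma adjusted p = 0.00011). Pyy, another L cell hormone, fell by 5.68 ± 0.44, and the granule protein Chga by 4.75 ± 0.41 (limma adjusted p = 5.4e-05 and 9.3e-05). Somatostatin (Sst) of D cells was at least 18.7-fold lower and cholecystokinin (Cck) fell by 4.8 ± 0.28 (limma adjusted p = 0.00018 and 3.3e-05). The member that rose was neurotensin (Nts), a hormone of N cells, at 2.6 ± 0.52 (limma adjusted p = 0.005). Insl5, Pyy, Chga, Sst and Cck also passed in the slide-blocked fit, and Nts did not (limma adjusted p = 0.056). With normexp Nts was at 0.45 (adjusted p = 0.72).

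Tuft cell genes split. Of 9 tested 3 fell, 1 rose and 5 did not pass, against 18.1% of all genes lower and 18.0% higher. The cation channel Trpm5, which carries the taste signal of tuft cells, was at least 4.7-fold lower and the transcription factor Gfi1b at least 6.85-fold lower (limma adjusted p = 8.1e-05 and 0.00039). Avil, an actin-bundling protein, rose by 3.79 ± 0.54 (limma adjusted p = 0.001, and 0.077 with normexp), with 0.05, 0.22 and -0.03 in AOM/DSS arrays, against -4.31, -3.52 and -3.29 in DSS arrays.

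**Figure D2:**
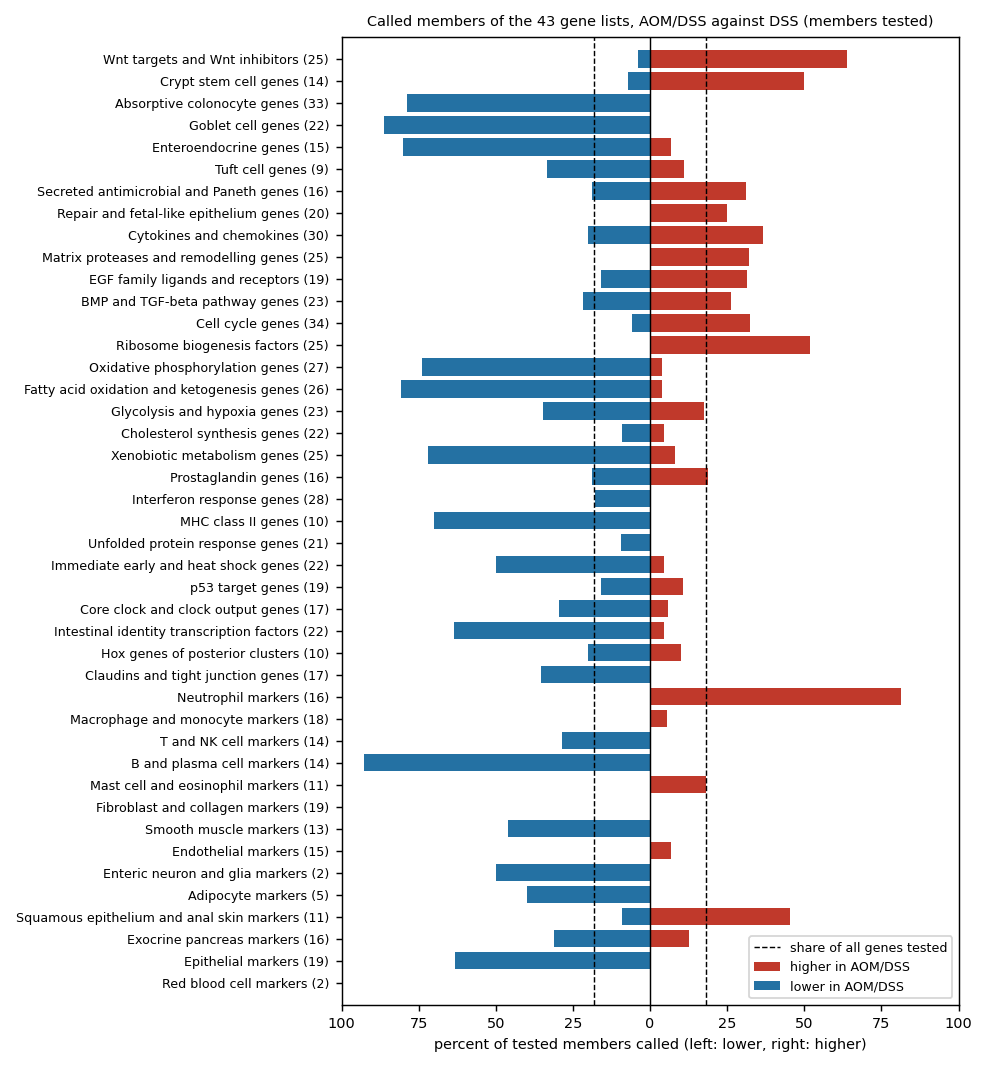
Percent of tested members of each of the 43 gene lists called higher (red, right) or lower (blue, left) in AOM/DSS against DSS, with the number tested in brackets. Dashed lines mark the shares of all genes tested, 18.0% higher and 18.1% lower; neutrophil markers reach furthest right, and B and plasma cell markers, goblet and fatty acid oxidation genes furthest left.

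Transcription factors of intestinal identity were lower too. Of 22 tested 14 fell, 1 rose and 7 did not pass, with a median of -1.20 log2 units. Cdx2, the homeodomain factor that sets intestinal fate, was at 1.23, 1.10 and 0.96 in neoplasms, against 3.60, 4.55 and 4.57 in DSS epithelium (-3.14 ± 0.31, limma adjusted p = 0.00018). The nuclear receptor Nr5a2 fell by 5.32 ± 0.46, the factor Klf4 of differentiated cells by 3.26 ± 0.37 and the liver and gut factor Creb3l3 by 3.53 ± 0.58 (limma adjusted p = 9.6e-05, 0.00035 and 0.0023). Hnf4a, a nuclear receptor of enterocytes, fell by 1.64 ± 0.26 and the vitamin D receptor Vdr by 2.72 ± 0.29 (limma adjusted p = 0.0019 and 0.00026). Of 19 broad epithelial markers none rose and 12 fell, with a median of -1.20, and none fell with normexp. Keratins Krt8 and Krt19, abundant in both tissues, fell by 1.56 ± 0.28 and 1.48 ± 0.27, and the adhesion molecule Epcam was at -0.61 ± 0.26 (limma adjusted p = 0.0034, 0.0033 and 0.088). With normexp Krt8 and Krt19 did not pass (adjusted p = 0.074 and 0.096). Krt8 was at 7.72, 7.99 and 7.72 in AOM/DSS neoplasms, against 8.99, 9.32 and 9.80 in DSS epithelium, so both tissues carried this defining epithelial marker at a high level.

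Chemokines that attract neutrophils were high in the neoplasms. Of 37 cytokine and chemokine genes on the array 30 were tested, of which 11 rose, 6 fell and 13 did not pass, with a median of 1.12 log2 units. The count of rises was 7 with arrays scaled to their median or without AOM/DSS replicate 3 or DSS replicate 3, 4 with normexp and 1 with slide as a block. Cxcl5 was at 2.29, 1.87 and 3.94 in AOM/DSS arrays, against -2.63, -0.61 and -4.33 in DSS arrays (5.22 ± 0.95, limma adjusted p = 0.0033). Cxcl1 was at 1.11, -0.07 and 2.11 in neoplasms, against -3.04, -1.16 and -4.71 in DSS epithelium (4.02 ± 0.87, limma adjusted p = 0.0074). DSS replicate 2 was the highest of the DSS arrays for both, and AOM/DSS replicate 2 the lowest of the neoplasms. Cxcl2 was at least 11.6-fold and Cxcl3 at least 3.8-fold higher (limma adjusted p = 0.0029 and 0.0031), and with normexp neither passed (adjusted p = 0.17 and 0.7).

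NF-kappa-B sites were searched in the same promoters as GGG, then any pair of bases, then TTTCC or ATTCC, on either strand, where matches to both motifs may overlap. Of 30 tested members of the list 23 had a promoter, with 28 promoters, and 9 of these (32.1%) held a match, against 2.40% of all 32851 promoters. Matches lay in 3 of 8 members that rose and had a promoter, and also in members that fell or did not pass, such as Ccl9 and Cxcl10. The windows of Cxcl1, Cxcl2 and Cxcl3 are shown because these chemokines rose together and share the element. All lie on the plus strand, at chr5:90891144-90891196, chr5:90903790-90903842 and chr5:90786016-90786050, and capitals mark the matches:
Cxcl1: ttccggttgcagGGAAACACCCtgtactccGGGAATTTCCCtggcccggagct
Cxcl2: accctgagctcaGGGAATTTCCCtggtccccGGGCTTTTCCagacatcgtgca
Cxcl3: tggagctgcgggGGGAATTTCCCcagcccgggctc
Each of these windows holds the run GGGAATTTCCC, which both motifs match, and the promoters found for the neutrophil list, 16 in all, held none. A match is not a measured site.

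Other members of the list went both ways. The alarmin Il33 rose by 4.34 ± 0.86 log2 units, with 1.09, -0.72 and 1.25 in AOM/DSS arrays, against -3.95, -3.07 and -4.38 in DSS arrays (limma adjusted p = 0.0048, and 0.052 with normexp). Interleukin Il1b was at 2.44 ± 0.78 (limma adjusted p = 0.033), and its call ended without AOM/DSS replicate 1, AOM/DSS replicate 3, DSS replicate 1 or DSS replicate 3, with adjusted p up to 0.13, or with normexp (adjusted p = 0.06). The mucosal chemokine Ccl28, made by epithelium and drawing IgA plasma cells, fell by 3.45 ± 0.37 (limma adjusted p = 0.00026), with -2.61, -3.13 and -3.64 in neoplasms, against 0.46, -0.14 and 0.64 in DSS epithelium. Ptgs2, the inducible cyclooxygenase, was at 1.83 ± 0.88 (limma adjusted p = 0.12). Hpgd, which breaks down prostaglandins, fell by 3.06 ± 0.54, and Slco2a1, which carries prostaglandins into cells, by 3.49 ± 0.39 (limma adjusted p = 0.0028 and 0.00034). Over the prostaglandin list 3 of 16 tested members rose and 3 fell, near the 18.0% and 18.1% of all genes.

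Neutrophil markers rose with the chemokines. Of 16 tested 13 rose and 3 did not pass, with a median of 2.48 log2 units, while 3 rose with normexp and 1 with slide as a block. The calprotectin subunit S100a9 was at 5.74, 6.58 and 7.24 in AOM/DSS arrays, against 1.43, 4.08 and 0.39 in DSS arrays (4.55 ± 0.78, limma adjusted p = 0.0025), and its partner S100a8 rose by 4.96 ± 0.97 (limma adjusted p = 0.0046). DSS replicate 2 was again the highest DSS array. Epithelium can also make S100a8 and S100a9. The mean level over the list, taken against its 12-array mean, was 1.81 to 2.72 in neoplasms and -1.15 to 0.49 in DSS epithelium. Macrophage markers did not follow: of 18 tested 1 rose, the arginase gene Arg1, at 2.72 ± 0.85 (limma adjusted p = 0.031), and the median was -0.05. Arg1 passed in none of the single-array omissions but that of DSS replicate 2, with adjusted p up to 0.11, and did not pass with normexp (adjusted p = 0.11). Mast cell markers gave 2 rises among 11 tested, near the 18.0% of all genes.

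B cell genes were among the most reduced. Of the 14 tested genes of the B and plasma cell list, 13 were called lower and 1 was not called, with a median of -4.27 log2 units. The complement receptor Cr2 of B cells and follicular dendritic cells was at -5.50, -7.18 and -5.23 in AOM/DSS arrays, against -0.16, -0.14 and -0.50 in DSS arrays (-5.71 ± 1.01, limma adjusted p = 0.0029). The B cell membrane protein Ms4a1 (CD20) was at -1.51, -4.55 and -1.38 in neoplasms, against 3.45, 3.09 and 2.81 in DSS epithelium, and AOM/DSS replicate 2 was the lowest for both. The antigen receptor subunit Cd79b fell by 5.10 ± 0.98 and the IgM receptor Fcmr by 6.94 ± 1.14 (limma adjusted p = 0.0042 and 0.0021). Glycam1, a ligand of lymphocyte homing receptors on high endothelial venules, fell by 6.0 ± 1.69 (limma adjusted p = 0.021), and did not pass without AOM/DSS replicate 2 or DSS replicate 2 (adjusted p = 0.076 and 0.071) or with normexp (adjusted p = 0.052). Cr2, Ms4a1, Cd79b and Fcmr passed with slide as a block, with larger falls there, at -9.51, -9.73, -8.84 and -11.18 log2 units. Those sizes include the differences among AOM arrays, whose B cell list scores were 2.49, 0.90 and -0.83 in AOM replicates 1, 2 and 3. B cell list scores were -3.20 to -1.60 in neoplasms, 1.32 to 2.08 in DSS epithelium, -0.83 to 2.49 in AOM arrays and -1.23 to 0.97 in control arrays, so the DSS scores lay above every control score.

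MHC class II genes moved with these markers. Of 10 tested 7 fell and 3 did not pass, with a median of -1.51 log2 units and values that did not overlap for any of the 10, against 49.1% of all genes. H2-Oa and H2-DMb2, chaperones of peptide loading, fell by 4.12 ± 1.03 and 4.0 ± 1.02 (limma adjusted p = 0.013 and 0.014), and the classical class II chain H2-Aa was at -1.47 (limma adjusted p = 0.083). The count was 3 without AOM/DSS replicate 1, DSS replicate 2 or DSS replicate 3, and 4 without AOM/DSS replicate 2 or AOM/DSS replicate 3, and 2 with normexp. T and NK cell markers fell in 4 of 14, against 18.1% of all genes. No member passed without AOM/DSS replicate 1, AOM/DSS replicate 2 or DSS replicate 2, and 1 without DSS replicate 3. Interferon response genes fell in 5 of 28, near the 18.1% of all genes.

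**Figure D3:**
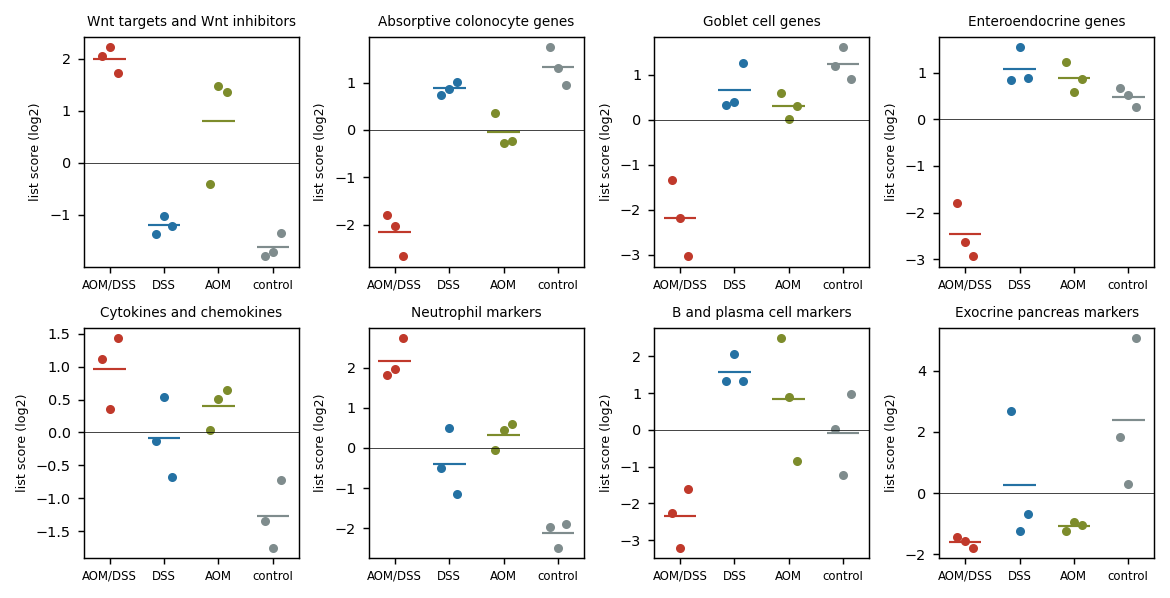
List score of each array (mean over tested members of the level minus its 12-array mean, log2 units) for 8 lists, with groups along the horizontal axis and lines at group means. AOM/DSS and DSS scores overlap in the cytokine panel and do not overlap in the Wnt, colonocyte, goblet, enteroendocrine, neutrophil, B cell and pancreas panels. In the pancreas panel DSS replicate 1 stands at 2.68, above the other DSS arrays and below control replicate 3 at 5.05.

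Markers of supporting tissue differed by cell type. None of 19 tested fibroblast and collagen markers was called (median -0.03 log2 units; 6 had values that did not overlap), and 1 of 15 endothelial markers, Prox1, which is also a Wnt target, rose (at least 9.03-fold, limma adjusted p = 0.0013, and 0.26 with normexp). Smooth muscle markers fell in 6 of 13, with a median of -1.36. The matrix glycoprotein Thbs4, the largest of these, was at -0.10, -1.83 and -4.04 in AOM/DSS arrays, against 4.15, 4.40 and 5.06 in DSS arrays (-6.53 ± 0.75, limma adjusted p = 0.00036). The actin-binding calponin Cnn1 was at -2.22 ± 0.77 (limma adjusted p = 0.044), and no longer passed when any 1 array was left out or with normexp. The smooth muscle count was 2 without AOM/DSS replicate 1, DSS replicate 2 or DSS replicate 3, and 3 with normexp or without AOM/DSS replicate 2 or AOM/DSS replicate 3.

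Matrix proteases rose in 8 of 25 tested members and fell in none, with a median of 0.85 log2 units. With normexp 4 rose, and with slide as a block none did. Stromelysin Mmp10 rose by 4.04 ± 0.91, with 3.15, 1.58 and 3.52 in AOM/DSS arrays, against -1.71, -0.01 and -2.15 in DSS arrays (limma adjusted p = 0.0086). The plasminogen activator Plat rose by 3.26 ± 0.42 (limma adjusted p = 0.00061). Collagenase Mmp13 was at 3.52 ± 1.28 (limma adjusted p = 0.052). Antimicrobial and Paneth genes rose in 5 of 16 and fell in 3, against 18.0% and 18.1% of all genes, with 3 rises with arrays scaled to their median or without AOM/DSS replicate 3 or DSS replicate 3. None fell with normexp, with quantile normalization or without AOM/DSS replicate 1, and 1 fell without AOM/DSS replicate 2, DSS replicate 2 or DSS replicate 3. The iron-chelating lipocalin Lcn2 was at 1.65, 3.25 and 4.07 in neoplasms, against -3.74, -2.40 and -3.79 in DSS epithelium (6.30 ± 1.15, limma adjusted p = 0.0034). The lectin Reg3g was at 3.1 ± 1.22 (limma adjusted p = 0.069).

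Genes of repairing or fetal-like epithelium rose in 5 of 20, and in 3 with normexp or without AOM/DSS replicate 1, AOM/DSS replicate 3 or DSS replicate 3, against 18.0% of all genes, with a median of 0.11 log2 units. Keratin Krt17, induced in wounds, rose by 4.96 ± 0.92 (limma adjusted p = 0.0036), and the membrane protein Ly6a by 1.41 ± 0.25 (limma adjusted p = 0.0027). The median of the squamous and anal skin list was 2.03 over 11 tested members, and 1.22 with members below background at their bound, of which 5 rose and 1 fell (1 rose with normexp). Hair keratin Krt35 was at least 16.7-fold higher and Krt36 rose by 4.05 ± 0.94, while the cornified envelope gene Sprr1a fell by 3.55 ± 0.74 (limma adjusted p = 0.00083, 0.0095 and 0.0061). With normexp Krt35 was at 2.26 log2 units, below that bound, and did not pass (adjusted p = 0.14).

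Among growth factor genes, the EGF family list had 6 rises and 3 falls among 19 tested, against 18.0% and 18.1% of all genes, with 1 of each under normexp. The receptor ligand Btc rose by 2.00 ± 0.34 (limma adjusted p = 0.0025, and 0.55 with normexp). The MAP kinase target Phlda1 was at 5.61, 5.38 and 4.96 in AOM/DSS arrays, against 2.29, 3.95 and 3.43 in DSS arrays (2.09 ± 0.51, limma adjusted p = 0.012). BMP and TGF-beta genes had 6 rises and 5 falls among 23, against 18.0% and 18.1% of all genes, with 3 rises without AOM/DSS replicate 1 or 3 and 2 without DSS replicate 3. The activin antagonist Fst rose by 4.32 ± 0.85, the decoy receptor Bambi by 2.52 ± 0.53, and the ligand Bmp8a fell by 2.78 ± 0.32 (limma adjusted p = 0.0047, 0.0063 and 0.00035). Fst did not pass with normexp (adjusted p = 0.091).

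Most cell cycle genes did not pass. Among 34 tested, 21 were not called, 11 rose and 2 fell, with a median of 0.83 log2 units, but 4 rose and 5 fell with arrays scaled to their median. For 1 of the 2 that fell, another probe of the gene was called in the opposite direction. The count of rises was 3 without AOM/DSS replicate 2 or AOM/DSS replicate 3, 5 without DSS replicate 1 and 2 without DSS replicate 3. The topoisomerase Top2a was at 0.30, 0.66 and 0.44 in neoplasms, against -1.25, -1.07 and -1.17 in DSS epithelium (1.63 ± 0.33, limma adjusted p = 0.0051). Mki67, the proliferation antigen, was at 1.51 ± 0.43 (limma adjusted p = 0.022), and did not pass without AOM/DSS replicate 2 or 3 or DSS replicate 2 or 3, with adjusted p up to 0.074. The cell cycle inhibitor Cdkn1a was at -1.12 ± 0.43 (limma adjusted p = 0.063). Ribosome biogenesis factors rose in 13 of 25 and fell in none, with a median of 0.97, and in 8 with arrays scaled to their median, with normexp, or without AOM/DSS replicate 3 or DSS replicate 3. The nucleolar GTP-binding protein Gnl3 (nucleostemin) rose by 2.45 ± 0.42 and nucleolin (Ncl) by 1.36 ± 0.33 (limma adjusted p = 0.0025 and 0.012), the second with adjusted p = 0.052 under normexp.

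Mitochondrial genes fell by small amounts. Of 27 oxidative phosphorylation genes 20 fell and 1 rose, with a median of -0.94 log2 units, but 7 fell with quantile normalization and none with normexp, and 13 without AOM/DSS replicate 1 or DSS replicate 3. The cytochrome oxidase subunit Cox6c was at 5.27, 5.14 and 5.59 in AOM/DSS arrays, against 6.40, 7.21 and 7.19 in DSS arrays (-1.60 ± 0.27, limma adjusted p = 0.0025, and 0.056 with normexp). Fatty acid oxidation and ketogenesis genes fell in 21 of 26, with a median of -1.07, in 15 with quantile normalization and in 3 with normexp. The dehydrogenases Acads and Hadh fell by 1.77 ± 0.36 and 1.69 ± 0.25 (limma adjusted p = 0.0055 and 0.0013), and Hadh did not pass with normexp (adjusted p = 0.059). Creatine kinase Ckmt2 of mitochondria was at least 17.5-fold lower (limma adjusted p = 9.3e-05). Glycolysis and hypoxia genes had 4 rises and 8 falls among 23, against 18.0% and 18.1% of all genes. The falls numbered 4 without AOM/DSS replicate 1, 2 without DSS replicate 3 and none with normexp. Among the 8 was the glucose carrier Slc2a1 at -1.44 ± 0.32 (limma adjusted p = 0.0078, and 0.075 with normexp).

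Several lists had shares of calls near or below those of all genes, 18.0% higher and 18.1% lower. Cholesterol synthesis genes had 1 rise and 2 falls among 22, unfolded protein response genes 2 falls among 21, p53 targets 2 rises and 3 falls among 19, and posterior Hox genes 1 rise and 2 falls among 10. Other lists had more falls. Of 17 claudin and tight junction genes 6 fell (2 with normexp), such as Cldn8 by 2.53 ± 0.47 and Cldn23 by 1.49 ± 0.26 log2 units (limma adjusted p = 0.0036 and 0.0026). Immediate early and heat shock genes fell in 11 of 22 and rose in 1, and fell in 7 without DSS replicate 2, 6 without DSS replicate 3 and 1 with normexp. Clock genes had 1 rise and 5 falls among 17, with the repressor Nr1d1 at -2.68, -1.69 and -1.87 in AOM/DSS arrays, against 0.64, 0.71 and 1.15 in DSS arrays (-2.91 ± 0.34, limma adjusted p = 0.00041). No hour of tissue collection was found in the labels.

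Exocrine pancreas genes had 2 rises and 5 falls among 16, against 18.0% and 18.1% of all genes, and their DSS levels rested on DSS replicate 1. The elastase Cela3b was at -7.26, -5.95 and -7.07 in AOM/DSS arrays, none above background, against 5.01, -3.30 and -2.12 in DSS replicates 1, 2 and 3 (limma adjusted p = 0.036). It passed in none of the single-array omissions but that of DSS replicate 2, and had adjusted p = 0.081 without DSS replicate 1 and 0.11 with normexp. Sycn, a zymogen granule protein, did not share that pattern: its DSS values were 7.21, 7.55 and 7.19 and its AOM/DSS values 2.19, 0.56 and -1.92 (-7.04 ± 0.75). Pnliprp1, a pancreatic lipase-related gene, went the other way, with 4.46, 4.90 and 4.91 in neoplasms, against 2.12, -4.37 and -2.62 in DSS epithelium (6.38 ± 1.79, limma adjusted p = 0.021), and passed in none of the single-array omissions but that of DSS replicate 1, with adjusted p up to 0.076. The pancreas list score was 2.68 in DSS replicate 1 and -1.24 and -0.67 in DSS replicates 2 and 3, against -1.78 to -1.45 in neoplasms. Control replicates 1, 2 and 3 scored 1.84, 0.30 and 5.05, so the highest score was that of a control array. The part of pancreatic tissue in other differences was not tested, but the list medians of Wnt, colonocyte and B cell genes without DSS replicate 1 were 3.02, -2.71 and -4.51.

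**Figure D4:**
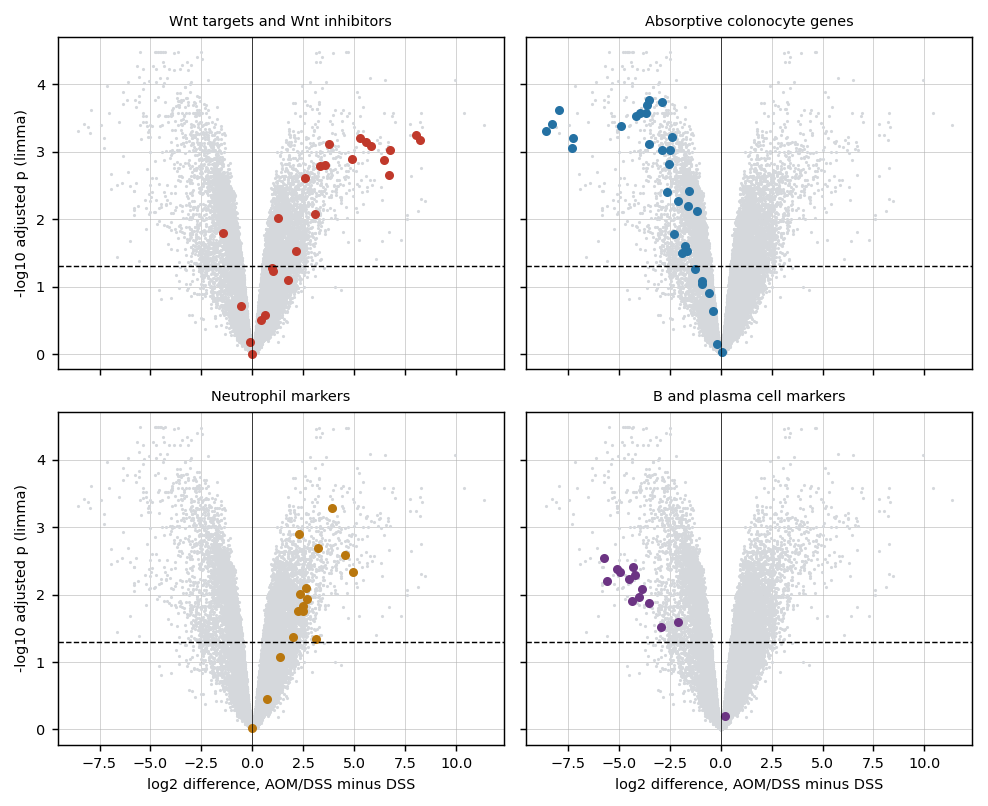
Log2 difference of AOM/DSS minus DSS (horizontal) against -log10 of the limma adjusted p (vertical) for all 18712 genes in grey and the tested members of 4 lists in colour, with a dashed line at an adjusted p of 0.05. Most Wnt and neutrophil members lie on the right above the line and 26 of 33 colonocyte and 13 of 14 B cell members on the left above it.

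Levels in AOM and control epithelium set these differences in context. Mmp7 averaged 6.31 ± 0.90 in AOM/DSS neoplasms and -3.64 ± 0.84 in DSS epithelium (SD, n = 3), with means of 1.63 in AOM and -5.41 in control arrays. The Wnt list score was 1.73 to 2.22 in neoplasms and -1.37 to -1.02 in DSS epithelium. AOM replicates 2 and 3 scored 1.49 and 1.37, close to the neoplasms, and AOM replicate 1 scored -0.41. The control arrays scored -1.80, -1.72 and -1.34. Crypt stem cell scores of AOM replicates 2 and 3, 0.68 and 0.54, lay within or just below the neoplasm range of 0.57 to 0.76. Colonocyte scores of the AOM arrays, -0.28 to 0.37, lay between the neoplasms (-2.67 to -1.80) and the DSS arrays (0.74 to 1.02).

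**Figure D5:**
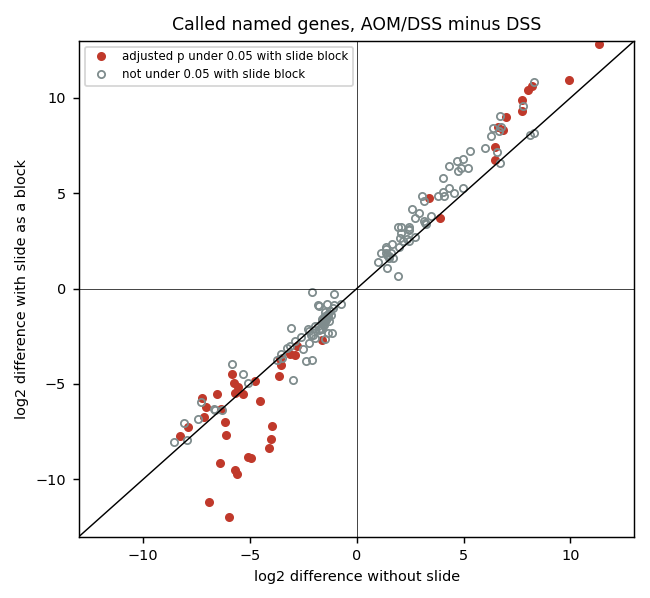
Log2 difference of AOM/DSS minus DSS for the 171 called genes that the naming rule selected, without slide (horizontal) and with slide as a block (vertical), and the line of equal values. All 171 keep their sign, and the 46 filled points have an adjusted p under 0.05 with the block.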

How the data were processed

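Total RNA was labelled with Cy3 and hybridised to one-colour Agilent mouse arrays, per the labels' protocols. Per the file headers, the deposited scanner files come from Agilent Feature Extraction 10.7.3.1 (10.7 in the submitters' processing notes) and hold processed intensity, from which background and spatial trend had been removed, not scaled between arrays. The deposited series matrix holds log2 values of the same arrays; judged from the values, it is quantile normalized, since its sorted columns are nearly identical and every column has a median of 6.17.

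Of 41174 non-control probes, 27198 carried a symbol through their RefSeq accession (GRCm38.p6 table; 18539 genes) and 13976 kept their own identifier. Intensity was taken to log2 and the 75th percentile of the array subtracted. Probes had to be well above background on every array of AOM/DSS or every array of DSS, and the brightest kept probe stood for a gene. That left 18712 genes, of which 13357 had a symbol, and 882 were above background on no DSS array. In 86 genes another probe was called in the opposite direction. Group means of all 12 arrays, which share 1 estimate of the spread, were fitted with limma 3.58.1 in R 4.3.3 (lmFit, eBayes, 8 residual and 2.66 prior degrees of freedom), with p-values adjusted by Benjamini-Hochberg over all genes. The number of arrays limits the precision. Alternatives were normexp (offset 50, on median signals), median and quantile scaling, the series matrix, other filters on dim probes, the mean of a gene's probes, 6 arrays alone, slide and replicate blocks, and omission of single arrays. The procedure was tested on simulated data.

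Named genes are the top 20 in each direction by log2 difference (called, with a symbol, groups not overlapping, each array of the higher group above background), up to 4 called members of each of 43 gene lists, and a panel of 23 genes. Not every such gene is printed, and some are not reported here. Il6, of the panel, did not pass the filter. Genes outside this rule, such as the Wnt ligands, Cxcl1 and Cxcl3, were chosen after their values were seen. The members and lists were chosen with earlier results of these data known. Replicate numbers do not pair arrays: deviations of same-numbered arrays correlated at 0.185, -0.194 and 0.00248.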

Additional observations from a re-analysis of the deposited data

How the results depend on the processing

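Of 6751 genes called between AOM/DSS and DSS, 3361 higher and 3390 lower, normexp background correction left 1915 (701 higher, 1214 lower), and slide as a fixed block left 470 (217 higher, 253 lower; 4708 at an unadjusted p under 0.05). No filter on dim probes gave 13247 calls, 9537 of them lower, over 32168 genes. A filter requiring all 6 arrays gave 2151 higher over 14843 genes, which by its construction drops genes that were dim in 1 group. Leaving out single arrays gave 3363 to 8883 calls, 1585 to 4611 higher and 1778 to 4272 lower. The replicate block gave 6501 calls (3468 higher, 3033 lower). Of the genes printed, Sfrp2 not counted, it ended 1 call, that of Cnn1 (adjusted p = 0.06). Slide as a random block had a negative consensus correlation and gave 9388 and 9392 calls over 6 and 12 arrays. The other alternatives kept each count within 1.5 times. Of 124 called genes printed, Sfrp2 not counted, 114 passed in every single-array omission, 94 with normexp, 122 with median scaling and 50 with slide as a block. Ascl2 turned to -0.10 log2 units with normexp, and the cause was not tested. Genes dim on all arrays of 1 group have only a bound, and with normexp the difference of several of them lay below it.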

Other observations

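Some gene families outside the rule for named genes also differed, and were chosen after their values were seen. Cytochrome P450 genes of the Cyp2b family went against the fall of other P450s. Cyp2b13 was at 0.77, -0.90 and -0.11 in AOM/DSS neoplasms, against -5.60, -6.43 and -6.06 in DSS epithelium, which gives at least 16.1-fold (limma adjusted p = 0.0026). Cyp2b9 rose by 5.42 ± 1.12 log2 units and Cyp2b10, a member of the xenobiotic list, was at least 7.2-fold higher (limma adjusted p = 0.006 and 0.0068). These genes are close copies, so single members are uncertain, and with normexp none of them passed (adjusted p = 0.12, 0.067 and 0.34 for Cyp2b13, Cyp2b9 and Cyp2b10).

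Lipoxygenases, which add oxygen to polyunsaturated fatty acids, were also high in the neoplasms. Alox12e was at 0.32, 0.37 and 0.18 in AOM/DSS arrays, against -4.29, -5.09 and -5.49 in DSS arrays, at least 20.8-fold (limma adjusted p = 0.00015). Alox15 was at least 13.4-fold higher and Alox12 rose by 5.15 ± 1.13 (limma adjusted p = 0.00042 and 0.0077). With normexp Alox12e and Alox15 did not pass (adjusted p = 0.058 and 0.16). Tissue kallikreins moved together the other way. Klk1b3, Klk1b4 and Klk1b8, whose sequences are close to Klk1 and may share its signal, fell by 5.07 ± 0.62, 5.03 ± 0.64 and 5.16 ± 0.61 (limma adjusted p = 0.00048, 0.00059 and 0.00042). Follicle genes beyond the B cell list fell as well. The chemokine receptor Cxcr5, which brings B cells into follicles, was at -3.84, -5.79 and -3.36 in neoplasms, against 1.16, 2.24 and 1.56 in DSS epithelium (-5.99 ± 1.09, limma adjusted p = 0.0033), and the transcription factor Spib fell by 5.17 ± 0.82 (limma adjusted p = 0.0018).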
